A study of Homo sapiens with 12 samples.

Results

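The landscape of H3K27me3 marks was described in unmodified, Tau expressing (WT) SH-SY5Y cells, from the peak lists of the 2 WT chromatin immune precipitation (ChIP) samples, Rep A and Rep B. They are 2 of the 12 samples of the series and 2 of its 6 H3K27me3 ChIP samples, chosen by their labels alone. The study set these cells beside a pair of SH-SY5Y cell lines without Tau, each with 2 ChIP samples, and took an input for every ChIP. Those cell lines and the inputs were not analysed here. The WT cells carry the genotype labelled Wild Type, were grown in complete medium with serum and received no treatment that the labels name. SH-SY5Y is a human neuroblastoma cell line, so the 2 samples show 1 tumour-derived line and not neurons of a tissue. The study calls them biological duplicates, the labels do not say whether the cultures were separate, and with 2 samples in a single group no test between groups could be made. Values of peaks are therefore given for both lists and read against the difference between them, and regions, domains and bins are described from the 2 lists joined.

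H3K27me3 is the addition of 3 methyl groups to lysine 27 of histone H3 by the polycomb repressive complex 2 (PRC2). PRC2 is known to keep genes silent that other cell types use, first of all the transcription factors that pattern the embryo, and its mark is read by the polycomb repressive complex 1 and removed by lysine demethylases. The mark can sit as a narrow peak at a CpG-rich start site or as a broad domain over whole genes and the ground between them. A peak shows where the mark was enriched and does not measure whether a gene was expressed.

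Rep A held 285826 peaks and Rep B 222191 on the assembled chromosomes of the hg38 build. Both lists were used whole. They are longer than the peak counts that the study's methods give, and the step between them is not given in the sources used here. Peaks of Rep A had a median width of 441 bp (10% were wider than 1534 bp) and those of Rep B a median of 682 bp (10% were wider than 2718 bp). Rep B, with fewer peaks, covered more sequence, 282.6 Mb against 213.6 Mb. Rep A was thus cut into more and shorter pieces: of the autosomal regions held by both lists, 33253 held more peaks of Rep A than of Rep B and 4909 the reverse. Column 7 of a list gives the fold enrichment of a peak over its local background, with a median of 3.38 in Rep A and 3.78 in Rep B. Column 9 gives its -log10 q-value, with a median of 2.58 in Rep A and 3.06 in Rep B. The reads piled up at a summit, recovered from the fold and the p-value of each peak, had a median of 9 in Rep A and 8 in Rep B, so that most peaks rest on few reads. The lowest local background was 1.52 reads in Rep A and 1.38 in Rep B. The narrowest peaks, which the caller sets to the fragment length, were 179 bp in Rep A and 244 bp in Rep B, and per base of that length the floor was 66.6% as high in Rep B as in Rep A. The total number of reads was not given in the sources used here, and the floor also depends on how the caller scaled ChIP and input, so the depth of the libraries is unknown. The part of depth and fragment length in the wider peaks of Rep B was not tested.

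Of the peaks of Rep A, 201650 (70.5%) overlapped a peak of Rep B by 1 bp or more, and 140165 (63.1%) of the peaks of Rep B overlapped one of Rep A. The shared peaks held 85.9% of the length of Rep A and 84.3% of that of Rep B. Peaks found in a single list were narrower, with a median of 300 bp against 560 bp for shared peaks in Rep A and of 446 bp against 990 bp in Rep B. They were also weaker, with a median -log10 q of 1.99 against 2.82 in Rep A and of 2.41 against 3.73 in Rep B. Sharing followed strength: in the weakest 10% of Rep A and Rep B 51.8% and 34.2% of the peaks were shared, in the strongest 10% 97.2% and 98.1%. A wider peak has more bases to be overlapped, and width rose with strength from a median of 270 bp to 1747 bp in Rep A and of 362 bp to 3351 bp in Rep B. Where at least 50% of each peak had to be covered by the other, 42837 pairs were left, which are 14.99% of Rep A and 19.3% of Rep B.

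**Figure D1:**
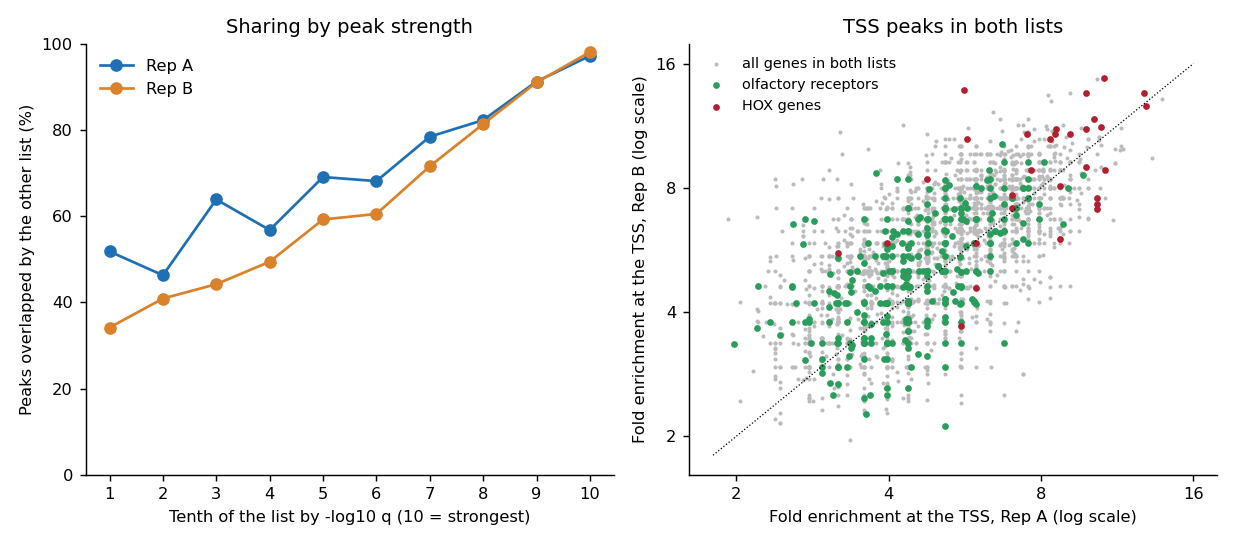
Left, the percentage of peaks overlapped by the other list (y axis) against strength in 10 classes of equal size by -log10 q (x axis) for Rep A and Rep B; it reaches 97.2% and 98.1% in the strongest class. Right, fold enrichment of the strongest peak at each gene's TSS in Rep A (x axis, log scale) and Rep B (y axis, log scale), each point a gene with a TSS peak in both lists, with HOX genes and olfactory receptors in colour and the line of equal values dotted; most HOX genes lie at the upper right.

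When overlapping peaks of the 2 lists were joined, 118471 of 284673 regions (41.6%) held at least 1 peak of each, and these are called shared regions. Of them 103326 lay on autosomes, where they covered 249.6 Mb, 9.05% of the 2756 assembled Mb. Their median width was 1391 bp, 10% were wider than 5236 bp, and the widest reached 100295 bp at the start of GLI3, a transcription factor of the hedgehog pathway. Regions of 5 kb or more made up 10.8% of all autosomal shared regions and 41.5% of their length, and 545 were 20 kb or wider. Below 1 kb the median of the highest fold in a region was 3.18 in Rep A and 3.36 in Rep B, and at 20 kb or more it was 7.48 and 8.27. The wider regions held more peaks, a median of 10 of Rep A and 2 of Rep B at 20 kb or more against 1 of each below 1 kb, and a maximum over more peaks is higher by construction. A region of 20 kb or more reached within 1 kb of a protein-coding transcription start site (TSS) in 33.4% of cases, against 3.46% of regions below 1 kb, as wider regions take in more sequence.

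Over all assembled chromosomes the bases covered in both lists came to 150.4 Mb of the 345.8 Mb covered in either (Jaccard index 0.435). The height of the mark was compared within the shared regions. Over the 103326 autosomal shared regions the highest fold in Rep A followed that in Rep B with a Spearman correlation of 0.52, and the -log10 q-value with 0.55. The points share their libraries and background, and neighbouring regions are not independent. The fold differed by less than 1.5 times between the lists in 83.8% of the regions. GC content was 40.9% in the shared regions and 41.0% on the autosomes as a whole, and CpG dinucleotides occurred 9.14 times per kb against 10.1.

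Joined across gaps of up to 1 kb, the autosomal shared regions formed 50609 domains with a median width of 2254 bp, of which 429 spanned 50 kb or more and 60 spanned 100 kb or more. The widest domain, 233.7 kb at chr17:48376561-48610237, ran from SKAP1, an adaptor protein of T cells, over HOXB1, HOXB2, HOXB3, HOXB4, HOXB5, HOXB6 and into HOXB7, and 96.5% of it lay in shared regions. A second domain of 189.2 kb at chr17:48162728-48351884 lay within SKAP1 as well. GLI3 held 221.1 kb (chr7:42015297-42236403), and KCND2, a voltage-gated potassium channel subunit, 187.0 kb (chr7:120544614-120731599). A domain of 158.2 kb on chromosome 22 overlapped CECR2, a bromodomain protein. Domains of 153.8 kb on chromosome 1 and 152.8 kb on chromosome 19 overlapped GJA5, a connexin, and NLRP12, an innate immune sensor. Such an overlap does not place the whole domain within the gene. A domain of 170.4 kb at chr20:56666533-56836944 overlapped no protein-coding gene. In each of the 10 widest domains the highest fold lay between 6.88 and 13.1 in Rep A and between 7.01 and 14.8 in Rep B.

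At a larger scale the mark was concentrated in blocks. The autosomes were divided into 2765 bins of 1 Mb, and in 1159 of them (41.9%) no shared region lay at all, while 540 bins (19.5%) had over 20% of their sequence in shared regions and held 79.3% of the covered length. The 2 lists agreed on this pattern, with a Spearman correlation of 0.97 over the bins between the percentages covered in each list, given as a description because neighbouring bins are not independent. In 776 bins neither list held a single peak. In bins without a shared region the median number of peaks was 0 in both lists, and in bins over 20% covered it was 325.5 in Rep A and 236 in Rep B. Median GC content was 39.3% in the first class and 39.9% in the last. The median local background at the peaks was 1.56 reads in the first class and 1.54 in the last for Rep A, and 1.59 and 1.38 for Rep B.

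The bin with the highest coverage, chr16:86000001-87000000, was covered to 81.6% and holds FOXF1, FOXC2 and FOXL1, forkhead factors of the mesoderm, beside MTHFSD. The bin chr9:76000001-77000000 with PCSK5, a proprotein convertase, was covered to 79.3%, chr7:71000001-72000000 with GALNT17 and CALN1 to 76.8%, and chr18:78000001-79000000 with SALL3, a zinc finger factor of limb and nerve development, to 72.9%. The longest run of bins over 10% covered was 12 Mb on chromosome 6 (chr6:122000001-134000000), in which 41 of 58 protein-coding genes carried a TSS peak in both lists. A run of 11 Mb at chr17:5000001-16000000 held 37 such genes of 173. The longest stretch without any shared region was 22.2 Mb on chromosome 2 (chr2:176110764-198311821, 87 protein-coding genes, among them TTN, NEUROD1 and ITGAV), followed by 20.5 Mb on chromosome 3 (97 genes, among them ALCAM and CD47) and 17.8 Mb on chromosome 13 (27 genes, among them PCDH9 and KLF5). Blocks and empty stretches thus both spanned many genes.

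**Figure D2:**
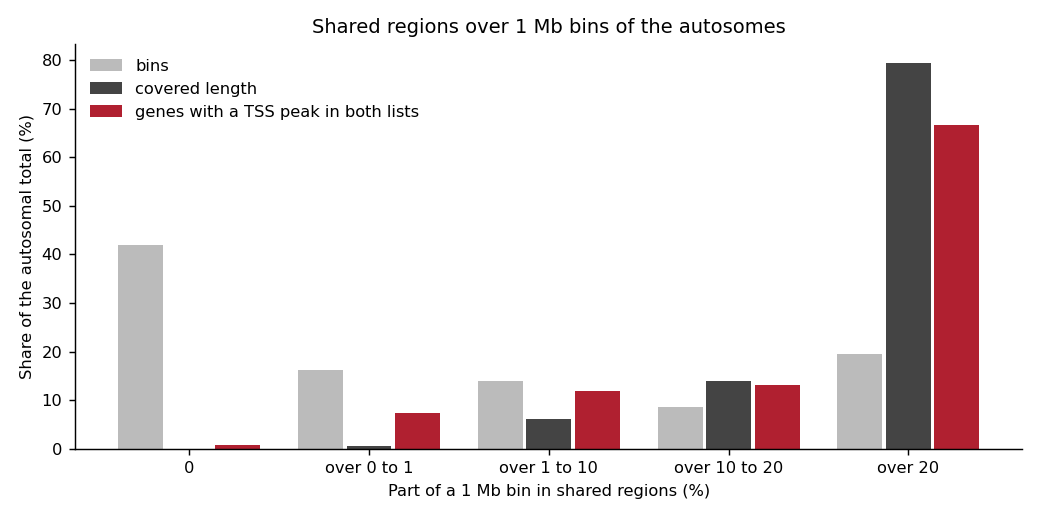
Shares of 1 Mb bins, of the length covered by shared regions and of the autosomal genes with a TSS peak in both lists (y axis, percent of the autosomal total) by how much of a bin lay in shared regions (x axis, percent). Bins over 20% covered were 19.5% of the bins and held 79.3% of the covered length and 66.7% of the genes.

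The autosomes differed in how much of them was marked. Chromosome 19 had 14.7% of its assembled sequence in shared regions, chromosome 7 had 14.5%, chromosome 8 13.04% and chromosome 6 12.7%. The lowest values were 4.05% on chromosome 10, 4.89% on chromosome 3 and 5.67% on chromosome 2. The order was similar in the 2 lists (Spearman correlation of the percentage covered by each list 0.94 over 22 autosomes) and showed little relation to gene density (0.14) or GC content (-0.01). Local background was raised on some chromosomes. Its median was 2.28 reads in Rep A and 1.99 in Rep B on chromosome 7, and 1.93 and 1.65 on chromosome 1, raised in both lists. It was 1.71 and 1.38 on chromosome 17, 1.64 and 1.39 on chromosome 2, and 1.59 and 1.38 on chromosome 8. These were raised in Rep A with little or no rise in Rep B. On most other autosomes it was 1.52 and 1.38. The part of a raised background in the coverage of chromosomes 7, 1, 17, 2 and 8 was not tested. Chromosome X, outside the autosomal description, held 13.6% of the peaks of Rep A and 14.98% of those of Rep B.

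**Figure D3:**
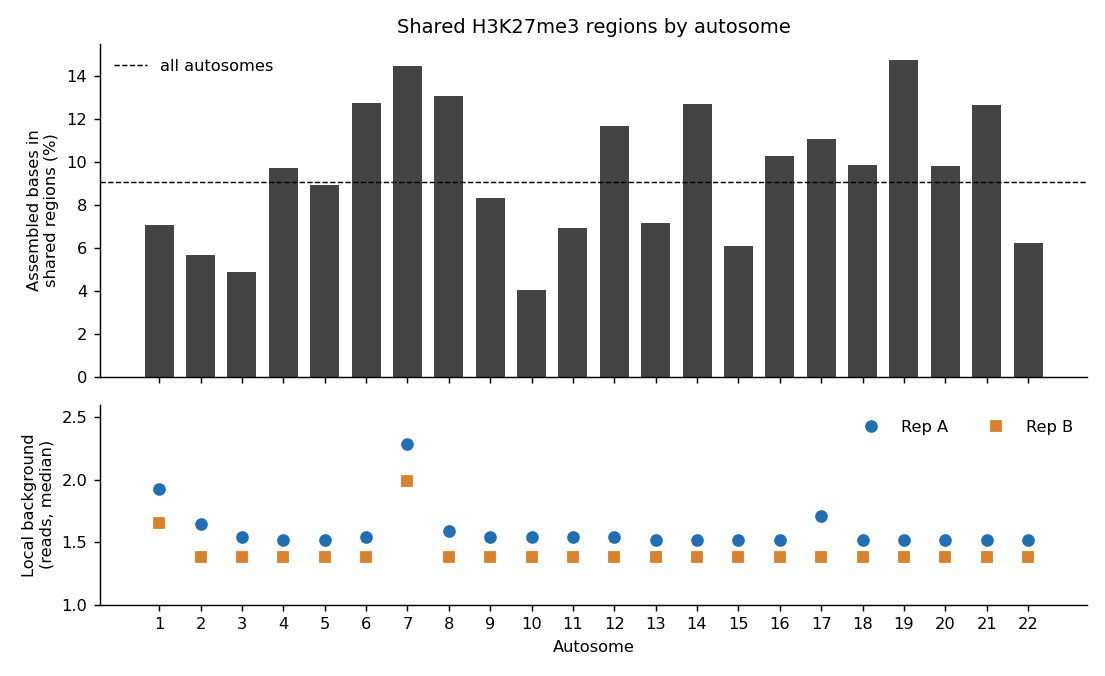
Upper panel, the percentage of each autosome's assembled bases in shared regions (y axis), with the value for all autosomes as a dashed line at 9.05%. Lower panel, the median local background in reads of the peaks on each autosome in Rep A and Rep B; chromosome 7 stands highest in both, at 2.28 and 1.99.

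Of 20033 protein-coding genes, 3653 had a peak of Rep A within 1 kb of a TSS and 3683 a peak of Rep B. Both lists had one at 3300 genes, which is 16.5% of all genes, 90.3% of the genes of Rep A and 89.6% of those of Rep B. The share was 14.8% on autosomes (2822 genes) and 55.6% on chromosome X (478 genes). With a -log10 q of at least 5 in both lists 1606 genes remained, 8.02% of all. At the 3300 genes the median fold of the strongest TSS peak was 5.05 in Rep A and 5.75 in Rep B, the median -log10 q 5.28 and 6.77, and the median summit 13 reads in both. Across these genes, which are not independent of each other, the fold in Rep A followed that in Rep B with a Spearman correlation of 0.67 and the -log10 q with 0.70. Genes with a TSS peak in Rep A alone (353) or Rep B alone (383) had weaker peaks, with a median -log10 q of 1.99 and 2.79. A gene may have several start sites, and its strongest peak was taken in each list separately, so the 2 folds given for a gene may come from different places. The strongest peaks of the 2 lists had no base in common at 1319 of the 3300 genes (39.97%) and lay over 2 kb apart at 562 (17.03%). Over the other genes, where they overlapped, the Spearman correlations were 0.61 and 0.66. At 162 genes no shared region lay within 1 kb of any TSS.

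Most genes with the mark lay inside the blocks. Bins over 10% covered held 5823 autosomal protein-coding genes, of which 2250 (38.6%) had a TSS peak in both lists, against 569 of 13247 (4.30%) in all other bins. The bins were classed by the same peaks, so this split is a description. Inside these bins the genes with a TSS peak in both lists had a median of 5 CpG in the 300 bases around the TSS, a median fold of 5.53 and 6.30 and a median width of 5086 bp for the widest shared region within 1 kb of a TSS. Outside them the genes had a median of 24 CpG, a median fold of 4.37 and 5.04 and a median width of 1566 bp. Wider regions inside the bins follow in part from classing bins by coverage. Of the autosomal genes of the 13 developmental factor lists below, whose members have a median of 22 CpG, 75 of the 103 inside the bins and 35 of the 114 outside had a TSS peak in both lists. Among all marked genes this median was 4284 bp at 0 to 4 CpG and 2645 bp at 30 or more.

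Genes were ordered by the weaker of their 2 percentile ranks by -log10 q at the TSS. The first 4 were USP17L23, USP17L24 and USP17L18, deubiquitinases of a tandem family on chromosome 4, and TAF11L5, of a tandem family on chromosome 5. Both families have near-identical copies, so the placement of their reads, with summits of 71 to 112 reads in Rep A and 60 to 92 in Rep B, is uncertain. The next were HOXB7, HOXB3, HOXB4, HOXA3, HOXB8 and CAV2. HOXB7 (chr17:48607232-48633572), a homeobox factor of trunk identity, had a fold of 12.8 in Rep A and 13.6 in Rep B, with 33 reads at both summits. These peaks (chr17:48629839-48633371 and chr17:48626829-48633383) lay at the outer end of the annotated gene, whose span takes in HOXB8 and HOXB9. The peak of Rep B was also the strongest TSS peak of HOXB9 in that list, so the value is not particular to HOXB7. CAV2 (chr7:116287380-116508541), a caveola protein, had 11.5 and 11.2, with 28 reads at both. The lists gave similar values at HOXB7 and CAV2, while HOXB3 had a fold of 10.7 in Rep A and 14.8 in Rep B. At CAV2 the values came from peaks of the 2 lists that did not overlap each other. Among the first 100 genes, 35 lay on chromosome 7, 19 on chromosome 17 and 14 on chromosome 1, which held 5.12%, 6.03% and 9.06% of the 3300 genes. Background was raised in both lists on chromosomes 7 and 1 and in Rep A alone on chromosome 17, and the part of that background in the order was not tested.

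The HOX genes, homeobox factors that set position along the body axis, carried a TSS peak in both lists at 30 of 39 members (76.9%, against 16.5% of all genes). All 11 HOXA genes did, with folds from 5.65 to 10.7 in Rep A and from 6.03 to 13.8 in Rep B, and so did all 10 HOXB genes, with folds from 7.003 to 12.9 and from 7.13 to 14.8. The HOXC and HOXD clusters were split. HOXC6, HOXC9, HOXC10, HOXC11, HOXC12 and HOXC13 carried TSS peaks in both lists, and HOXC4, HOXC5 and HOXC8 had none in either. HOXD13, HOXD12 and HOXD11 carried them, with folds of 3.97 to 5.96 in Rep A and 3.71 to 5.88 in Rep B, and HOXD10, HOXD9, HOXD8, HOXD4, HOXD3 and HOXD1 did not. The last shared region of the HOXD cluster lay at the 5′ part of HOXD10 and the next one 22.2 Mb further on, so that the long empty stretch of chromosome 2 opens within the cluster. The split was the same in both lists, since no HOX gene had a TSS peak in a single list.

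Taken over 13 lists of developmental transcription factors, 114 of 225 genes (50.7%, against 16.5% of all genes) had a TSS peak in both lists and 17 of them were among the first 100 genes. Among the ZIC genes, factors of the dorsal neural tube, ZIC2 had folds of 7.74 and 7.57 and ZIC1 of 3.97 and 4.92, with ZIC4 and ZIC5 lying from 4.76 to 6.35 in Rep A and from 4.92 to 6.82 in Rep B. At ZIC2 and ZIC4 the strongest peaks of the 2 lists did not overlap. Of the 9 PAX genes, 8 had a TSS peak in both lists, namely PAX1, PAX2, PAX3, PAX4, PAX6, PAX7, PAX8 and PAX9. PAX3, a factor of the neural crest, had folds of 7.74 and 11.1, and PAX6, a factor of eye and brain, of 7.37 and 11.3, and at both genes the strongest peaks of the 2 lists did not overlap. Of 14 NKX genes, 11 did (among them NKX2-1, NKX2-2, NKX2-5 and NKX6-1), and of 12 LIM homeobox genes 8 (LHX1, LHX2, LHX3, LHX5, LHX6, LHX8, LHX9 and LMX1A). With a -log10 q of at least 5 in both lists 7 NKX, 7 LIM homeobox, 7 PAX and 3 ZIC genes were left, against 8.02% of all genes. The patterning factors named here were thus marked over large parts of their families, at folds that spread widely within each family.

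Other families were marked at fewer members. Of 16 T-box genes 8 carried a TSS peak in both lists, TBX5 with folds of 9.93 and 7.99, then TBX15, EOMES, TBR1, TBX1, TBX21, TBX18 and TBX22. Of 35 proneural and lineage bHLH genes 17 did, led by MYF5, a muscle determination factor, with folds of 8.34 and 9.25, and by TCF21, PTF1A and MSC. Of 52 forkhead genes 17 did, among them FOXL3, FOXB1 and FOXL1. DLX1, DLX3 and DLX4 did of 6 DLX genes, and DLX4 stood out with folds of 9.13 and 13.6. The SOX genes had 4 of 19, SOX17, SOX1, SOX14 and SOX6, and SOX6 was close to the lower end of the lists with folds of 2.44 and 2.15. IRX4 and GATA6 were the single members of their families, each of 6 genes, so those shares (16.7%) lay near the 16.5% of all genes. Ligands ranged in the same way: 9 of 19 WNT genes (WNT2, WNT7B, WNT11, WNT9A, WNT7A, WNT3A, WNT1, WNT10B and WNT4; 5 of 19 where the canonical start site alone counted), 6 of 22 FGF genes led by FGF10, and 5 of 21 BMP and GDF genes led by BMP4, with folds of 9.53 and 9.25. Where a -log10 q of at least 5 was required in both lists 4 T-box, 13 bHLH, 9 forkhead, 2 SOX, 3 WNT, 3 FGF and 3 BMP and GDF genes were left, against 8.02% of all genes.

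Gene clusters of sensory, skin and immune function formed the other large group. Of 415 olfactory receptor genes, 319 (76.9%) had a TSS peak in both lists, with a median fold of 4.37 in Rep A and 5.04 in Rep B and a median of 1 CpG at the TSS of all members. OR56A3 led them with folds of 8.11 and 9.25, followed by OR2B11, OR1P1 and OR7C1. The HOX genes with TSS peaks had a median fold of 8.64 and 8.92. With a -log10 q of at least 5 in both lists the shares were no longer equal, as 110 receptors (26.5%) and 26 HOX genes (66.7%) were left, against 8.02% of all genes. Of 55 keratin genes 41 (74.5%) carried it, led by KRT73 with folds of 7.94 and 9.67 and by KRT74, KRT78 and KRT27, and of 94 keratin-associated protein genes of the hair 66 (70.2%), led by KRTAP4-2, KRTAP17-1, KRTAP12-1 and KRTAP10-10. Chemokine genes had 27 of 40, led by CCL4L2, CCL3, CXCL14 and CCL23, and cytochrome P450 genes 29 of 56, led by CYP2E1, CYP3A7, CYP3A4 and CYP2A7. Under the same setting 22 of the 94 keratin-associated protein genes (23.4%), 17 chemokine and 18 cytochrome P450 genes were left, and 30 keratin genes. Members of such clusters share their regions: the 41 keratin genes lay in 3 bins of 1 Mb, the 319 olfactory receptors in 43 and the 30 HOX genes in 4. The receptor and keratin-associated genes have similar copies, at which the placement of reads is uncertain.

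Lists of genes that mark other tissues had from 21.4% to 50% of their members marked, against 16.5% of all genes. They are not separate from the lists above, since 12 of their 24 marked members stand in another list too, among them all 5 muscle genes. Of 20 liver and gut genes 10 had a TSS peak in both lists, CDX2, GATA6, PDX1, FOXA1 and FOXA2 among the factors and ALB, AFP, FGA, FGB and FGG among the secreted proteins. ALB, the gene of serum albumin, had folds of 5.16 and 7.15. Muscle genes had 5 of 15 (MYF5, MYF6, MYOD1, TBX5 and NKX2-5), blood cell genes 6 of 16 (CD3E, TAL1, HBA1, HBA2, RUNX1 and IKZF1) and Schwann cell and melanocyte genes 3 of 14 (PAX3 and FOXD3 among them; 21.4%, near the share of all genes). HBA1 and HBA2, the alpha-globin pair, are near-identical copies. Of the genes of nerve cells, GABA-A receptor subunits had 10 of 19 (among them GABRA2, GABRA4, GABRB1 and GABRB2), glutamate receptors 9 of 26, led by GRIN2B with folds of 6.75 and 7.57, and potassium channels 27 of 96 (28.1%), led by KCNK2. Counted at the canonical start site alone, potassium channels had 17 of 96 (17.7%, against 13.7% of all genes). Collagens had 16 of 44, and COL8A1, a short-chain collagen, led them with folds of 9.93 and 10.5. At GRIN2B and COL8A1 the strongest peaks of the 2 lists did not overlap. At the stricter q-value (a -log10 q of at least 5 in both lists) 6 liver and gut, 3 muscle and 3 blood cell genes were left. So were 2 Schwann cell and melanocyte, 9 GABA-A receptor, 5 glutamate receptor, 20 potassium channel and 10 collagen genes. The shares of these lists ran from 14.3% to 47.4%, against 8.02% of all genes at this setting.

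**Figure D4:**
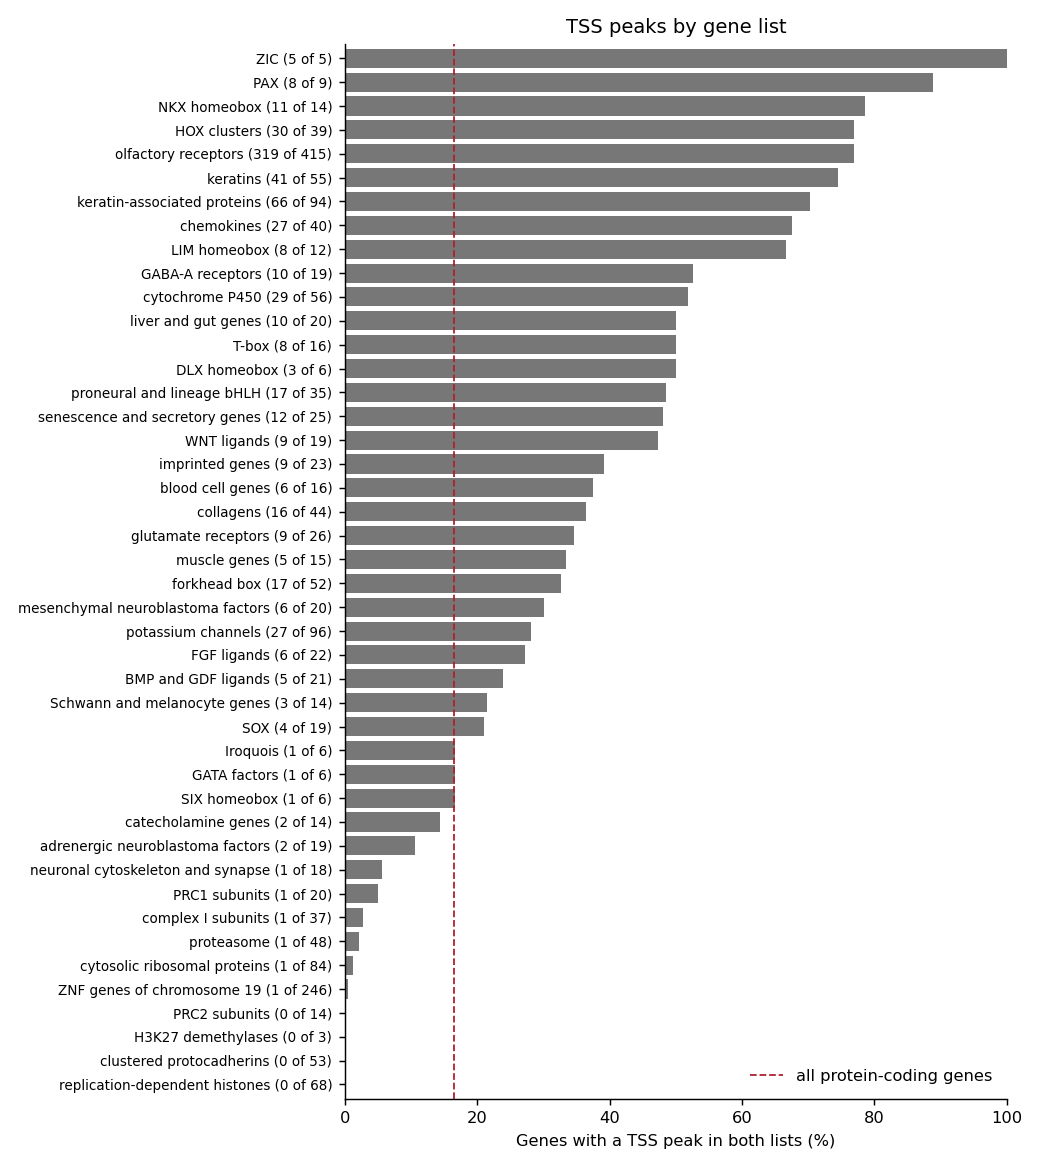
The percentage of annotated members with a TSS peak in both lists (x axis) for each of 44 gene lists (y axis, with the number of such members of all members), and the 16.5% of all protein-coding genes as a dashed line. PAX, NKX and HOX genes, olfactory receptors and keratins are among those at the top, Iroquois and GATA genes at the line of all genes, and ribosomal proteins, histones, protocadherins and zinc finger genes of chromosome 19 at the bottom.

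The lists of genes that every cell uses, namely ribosomal protein, proteasome and complex I genes, lay below the 16.5% of all genes. RPL39L was the single marked gene of 84 cytosolic ribosomal protein genes (1.19%), and it is the paralogue of the list that is known from testis. Where the canonical start site alone counted, 0 of the 84 were marked. Of 48 proteasome genes PSMB9, an immunoproteasome subunit that interferon induces, was the single one, with folds of 5.52 and 8.73. NDUFA1 was the single one of 37 complex I genes, with folds of 3.18 and 4.60, and it lies on chromosome X, where 55.6% of genes were called. The marked proteasome member and the marked ribosomal member thus were not of the constitutive set. Lists of other kinds lay low as well. None of 68 replication-dependent histone genes and none of 53 clustered protocadherin genes had a TSS peak in either list. The histone genes lie in 6 bins of 1 Mb and the protocadherins in 2, so these counts rest on few places of the genome. Of 246 zinc finger genes of chromosome 19, ZNF112 alone had one in both lists (0.407%), with folds of 3.18 and 4.203. Chromosome 19 as a whole was the most covered by shared regions of the 22 autosomes. In Rep B alone chromosome 7 was covered more, to 14.6% against 13.6% for chromosome 19. The PRC2 subunits had 0 of 14 genes, the lysine demethylases of the mark 0 of 3, and the PRC1 subunits 1 of 20, BCOR on chromosome X. At the canonical start site alone neither ZNF112 nor BCOR had a TSS peak in both lists.

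Markers of the cell line were marked at shares not far from that of all genes (16.5%) or below it, with 2 of 19 adrenergic factors (10.5%), 2 of 14 catecholamine genes (14.3%) and 1 of 18 genes of the neuronal cytoskeleton and synapse (5.56%), and most genes of any kind (79.9%) had no TSS peak in either list. With a -log10 q of at least 5 in both lists none of the members of these 3 lists was left, against 8.02% of all genes. Among the 19 factors of the adrenergic state of neuroblastoma, in which these cells are usually placed, GATA2, GATA3, HAND1, HAND2, ISL1, PHOX2A and MYCN had no TSS peak in either list, and 2 genes had one in both. SATB1, a chromatin organiser, had folds of 4.37 in Rep A and 3.27 in Rep B, in peaks that did not overlap each other. At its canonical start site alone SATB1 had no TSS peak in both lists. TH and DBH, enzymes of catecholamine synthesis, had none, and of the catecholamine genes MAOA and MAOB, degrading enzymes on chromosome X, had one in both. Of the genes of the neuronal cytoskeleton and synapse DCX, on chromosome X as well, alone had one in both lists, where its peaks did not overlap each other. Of 20 factors of the mesenchymal state 6 did (30%), PRRX1 with folds of 8.04 and 8.83, and among the others MEOX2, RUNX1, RUNX2 and TBX18. TWIST1, SNAI2 and FOSL1 had none. At the stricter q-value 3 of the 20 were left. Peaks do not measure expression, so these values do not show which genes the cells used.

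MAPT, the gene of Tau (chr17:45894527-46028334), held no peak in its whole body in either list, and the nearest shared region was 112.6 kb away. IGFBP3, an insulin-like growth factor binding protein linked to senescence (chr7:45912245-45921874), had a TSS peak in both lists, with a fold of 5.68 in Rep A and 4.58 in Rep B and a -log10 q of 6.83 and 5.15. The peak of Rep A lay at chr7:45918060-45919469 and that of Rep B at chr7:45917984-45920505, with 15 and 13 reads at the summit. The peak of Rep A is counted through a start site inside the gene, and a second, weaker peak of Rep A lay within 1 kb of the canonical TSS, as the peak of Rep B did. IGFBP3 stood at place 1805 of 3300, near the middle of the order. Of 25 senescence and secretory genes 12 had a TSS peak in both lists (48%, against 16.5% of all genes), led by IL6, CDKN2A, MMP1 and MMP3. IL6, an inflammatory cytokine, had folds of 7.27 and 8.24, and CDKN2A, a cell cycle inhibitor, of 7.54 and 8.41. At both genes the strongest peaks of the 2 lists did not overlap. Of 23 imprinted genes 9 had a TSS peak in both lists (39.1%), led by GRB10, PLAGL1, IGF2 and NDN. Where the canonical start site alone counted, 3 of 23 did (13.04%, against 13.7% of all genes), and PLAGL1 and IGF2 were not among them. At the stricter q-value 7 senescence and secretory genes (28%) and 4 imprinted genes (17.4%) were left, against 8.02% of all genes. GRB10, an adaptor of growth factor receptors, had folds of 8.26 and 13.5 in peaks that did not overlap each other.

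The start site itself was often spared. A shared region lay over the canonical TSS at 6.07% of genes, but 2 kb before it at 10.3% and 2 kb after it at 10.5%. The depth of this dip followed the CpG content of the 300 bases from 250 before the TSS to 50 after it. For the 13523 genes with 15 or more CpG the share fell from 6.54% at 2 kb before to 0.422% at the TSS and rose to 6.55% at 2 kb after. For the 3098 genes with 0 to 4 CpG it was 24.2%, 26.4% and 25.5%, with no dip. The developmental factors, with a median of 22 CpG, had 40.9%, 13.8% and 34.7%, so that the mark flanked their start sites more often than it lay on them. Counted over all start sites within 1 kb, 39.0% of the genes with 0 to 4 CpG and 9.53% of those with 30 or more had a TSS peak in both lists. The median GC content of these 300 bases was 44% and 74% in the same 2 classes, and its part in the dip was not tested.

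**Figure D5:**
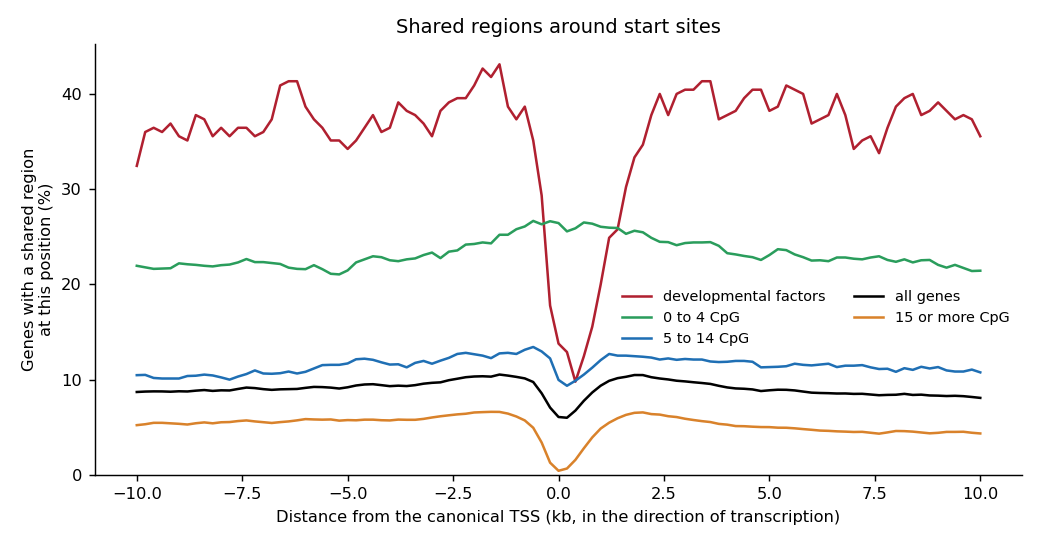
The percentage of genes with a shared region at each position (y axis) against distance from the canonical TSS in kb, in the direction of transcription (x axis), for all genes, for 3 classes of CpG count around the TSS and for the developmental factor lists. The line for genes with 15 or more CpG falls to 0.422% at the TSS and the line for genes with 0 to 4 CpG stands at 26.4% there.

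The promoters of 4 strongly marked genes at separate places, at places 3, 8, 10 and 12 of the order above (TAF11L5, HOXA3, CAV2 and MUC3A), show what lies at such start sites, with the unmarked RPL10 and RPL10A, ribosomal protein genes, beside them. They are RefSeq sequences of the GRCh38.p14 build, 5′ to 3′ on the gene's strand, and CpG dinucleotides are in capitals.
CAV2: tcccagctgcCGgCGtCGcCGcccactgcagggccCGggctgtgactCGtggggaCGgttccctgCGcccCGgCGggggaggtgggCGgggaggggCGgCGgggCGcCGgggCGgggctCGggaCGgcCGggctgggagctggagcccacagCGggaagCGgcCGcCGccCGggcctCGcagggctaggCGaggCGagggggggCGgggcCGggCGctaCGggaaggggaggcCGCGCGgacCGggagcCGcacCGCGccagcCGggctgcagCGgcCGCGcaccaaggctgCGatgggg
HOXA3: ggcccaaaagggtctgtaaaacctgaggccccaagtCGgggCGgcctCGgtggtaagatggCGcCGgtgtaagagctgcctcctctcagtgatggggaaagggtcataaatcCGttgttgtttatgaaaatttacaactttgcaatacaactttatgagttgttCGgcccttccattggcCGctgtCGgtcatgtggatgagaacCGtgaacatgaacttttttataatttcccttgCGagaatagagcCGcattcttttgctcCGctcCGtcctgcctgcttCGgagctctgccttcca
MUC3A: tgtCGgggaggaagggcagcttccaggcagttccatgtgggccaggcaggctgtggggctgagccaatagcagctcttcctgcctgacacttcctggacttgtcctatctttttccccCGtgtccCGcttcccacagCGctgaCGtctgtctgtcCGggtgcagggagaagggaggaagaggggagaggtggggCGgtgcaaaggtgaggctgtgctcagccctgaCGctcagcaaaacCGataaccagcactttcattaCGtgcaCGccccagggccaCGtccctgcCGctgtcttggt
TAF11L5: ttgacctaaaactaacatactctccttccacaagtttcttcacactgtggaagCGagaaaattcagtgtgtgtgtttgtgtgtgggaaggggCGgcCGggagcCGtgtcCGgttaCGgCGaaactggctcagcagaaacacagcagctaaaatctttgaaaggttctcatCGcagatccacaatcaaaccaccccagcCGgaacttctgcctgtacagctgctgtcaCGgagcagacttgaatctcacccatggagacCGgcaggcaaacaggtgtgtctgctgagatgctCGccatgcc
RPL10: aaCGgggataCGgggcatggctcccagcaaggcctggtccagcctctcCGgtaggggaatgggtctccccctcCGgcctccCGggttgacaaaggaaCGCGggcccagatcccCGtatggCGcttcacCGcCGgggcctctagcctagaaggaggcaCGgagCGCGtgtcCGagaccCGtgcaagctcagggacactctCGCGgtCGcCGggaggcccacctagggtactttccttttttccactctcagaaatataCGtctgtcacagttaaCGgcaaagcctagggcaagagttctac
RPL10A: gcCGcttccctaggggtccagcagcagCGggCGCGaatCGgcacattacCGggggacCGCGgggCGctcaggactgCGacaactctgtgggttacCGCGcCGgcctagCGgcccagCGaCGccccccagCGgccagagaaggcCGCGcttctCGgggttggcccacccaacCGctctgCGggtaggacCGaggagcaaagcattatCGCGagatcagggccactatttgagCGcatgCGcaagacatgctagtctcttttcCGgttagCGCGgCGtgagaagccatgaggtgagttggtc
CAV2 (chr7:116499488-116499787, plus strand) has 43 CpG and 82.7% GC. None of its 300 bases lay in a peak of either list, while the strongest TSS peaks lay beside it, at chr7:116495804-116499361 in Rep A and chr7:116500221-116524790 in Rep B, on either side of this stretch. HOXA3 (chr7:27152534-27152833, minus strand) has 15 CpG, and 221 of its bases lay in peaks of Rep A and 0 in peaks of Rep B. Its strongest peaks were at another start site, at chr7:27115840-27122578 in Rep A and chr7:27115836-27124117 in Rep B. MUC3A, a membrane mucin of the gut (chr7:100949284-100949583, plus strand), has 13 CpG with 166 bases in peaks of Rep A and 0 in Rep B, and TAF11L5 (chr5:17524985-17525284, plus strand) has 12 CpG with 0 bases in either. RPL10 (chrX:154397815-154398114, plus strand) with 22 CpG and RPL10A (chr6:35468151-35468450, plus strand) with 31 CpG held no base in a peak of either list. Over the 300 bases themselves Rep B had no peak at any of the 6 promoters, while Rep A had peaks at those of HOXA3 and MUC3A.

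The weakest genes called in both lists were KRTAP20-3, CCDC120, LAMC3, CRHR1 and OR51A7. LAMC3, a laminin chain, had folds of 2.38 in Rep A and 2.20 in Rep B with a -log10 q of 0.959 and 0.942. CRHR1, the receptor of corticotropin-releasing hormone, had 3.35 and 1.96. OR51A7, an olfactory receptor, had 5.16 and 2.11. At CCDC120, LAMC3, CRHR1 and OR51A7 the 2 peaks did not overlap each other. Calls at this end of the order rest on 5 to 12 reads at the summit in Rep A and 5 to 9 in Rep B.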

How the data were processed

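H3K27me3 ChIP was sequenced in WT SH-SY5Y cells. Per the study's methods, single-end reads were trimmed and aligned by the authors with BWA (build hg38), and MACS (version 2) was run in a broad setting. The deposited files are narrowPeak lists, called per sample, and no threshold is given in the sources used here. In them column 7 is the fold enrichment ratio that the authors' caller wrote, columns 8 and 9 are the deposited -log10 p-value and -log10 q-value, column 5 is a deposited score and column 10 the summit's offset. Scores were not used. With Python 3.11.15, numpy 2.4.6, pandas 2.3.3 and scipy 1.17.1, summit reads h and background b were solved from fold = (h + 1)/(b + 1) and a Poisson p, and matched for 100% of peaks within 0.001. Regions were built from overlaps of 1 bp or more. Genes and start sites came from GENCODE 44, and every annotated start site within 1 kb counted. Steps were tested on simulated data. Named genes were the 10 highest and 5 lowest by the weaker percentile, up to 4 members a list (every marked member in lists of up to 20), the genes of the 10 widest domains, MAPT and IGFBP3. The results of some genes that this rule names are not reported here. The members, the 44 lists and the rule were chosen with earlier results of these data known, and the bin classes after the peaks were seen. RefSeq promoters were matched by symbol for 15367 of 20033 genes, and CpG was counted in hg38 for all.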

Additional observations from a re-analysis of the deposited data

How the results depend on the processing

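No paired analysis was possible because no result comes from a test. With a -log10 q of at least 5 in both lists the shared peaks fell to 27127 of Rep A and 21617 of Rep B, the shared regions to 18069 with a median width of 4493 bp and 106.6 Mb, the genes to 1606, the covered part of the autosomes to 3.76%, and the Spearman correlations of fold and -log10 q to 0.35 and 0.42. The autosomes kept a similar order (Spearman correlation 0.91). Reciprocal overlap left 42837 shared peaks. With peaks of a list within 1 kb merged first there were 52014 shared regions with a median width of 3561 bp, covering 361.6 Mb against 271.1 Mb. At the start site itself 1579 genes had a peak in both lists against 3300. A single list gave 222191 to 285826 peaks or regions, median widths of 441 to 682 bp, 213.6 to 282.6 Mb and 3653 to 3683 genes. Under q under 0.05 or equal numbers of peaks, these counts stayed within 1.5 times. The gene lists above the share of all genes numbered 32 of 44, and 30 to 33 under the other settings. Iroquois, catecholamine and imprinted genes changed sides. The cause of these changes was not tested. The depth of the libraries is unknown, the median peak of Rep A and Rep B rests on 9 and 8 reads at the summit, and 2 lists give no estimate of error beyond their difference.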

Other observations

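Some strong peaks were held by a single list. A -log10 q of at least 5 was reached by 35320 peaks of Rep A and 45189 of Rep B. Of these, 96.7% and 94.5% were shared, against 70.5% and 63.1% of all peaks. The remaining 1183 peaks of Rep A and 2500 of Rep B overlapped no peak of the other list. The strongest in Rep A, at chr3:75669069-75669387, had a fold of 4.62 over a local background of 32.5 reads, and one in TTC34 at chr1:2652177-2652484 had 7.18 over 4.57 reads. In Rep B the strongest lay in COL25A1, a membrane collagen, at chr4:108870406-108870880, with a fold of 8.78 over 1.39 reads, and others lay in CSMD1 and SPOCK3 with a fold of 7.99 each. These peaks were chosen after their values were seen.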
